A study of Mus musculus with 12 samples.

Results

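The IL-17, IL-22 and IL-23 axis was described from 8 genes that were chosen by name: Il17a and Il22, which encode the cytokines IL-17A and IL-22, Il23a, which encodes the p19 subunit of IL-23, the receptor subunit genes Il17ra, Il17rc, Il22ra1 and Il10rb, and Il22ra2, which encodes a soluble IL-22 binding protein. All 8 were among the 17734 genes measured, and all 8 passed the filter on low values that left 15315 genes to test. Il17a and Il22 passed it only through the mice in which colitis was induced. The RNA came from the rectum by the methods, and from the colorectum by the labels, of male C57BL/6 mice, 8 to 10 weeks old, and was taken on day 8 by the methods of the study. There were 3 mice in each of 4 groups. Normal mice received neither agent. Colitis mice drank 2.5% dextran sulfate sodium (DSS), a polymer that injures the lining of the bowel, for 7 days. Normal mice receiving BBR were given berberine, a plant alkaloid, as a daily gavage of 100 mg/kg, and colitis mice receiving BBR were given both DSS and berberine. Dosing with berberine lasted 7 days by the methods and 6 days by the sample labels. Levels are FPKM, read counts scaled for transcript length and for sequencing depth, and the unit was read from the values, where TPM could not be told apart from it. The mice numbered 4 stood apart in all 4 groups, with 872 to 1086 genes at 0 and about 17300000 to 19700000 reads by the steps between low values, against 1332 to 1926 genes at 0 and about 11900000 to 13400000 reads in the other 8 mice.

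In the intestine, IL-23 from myeloid cells sustains T cells and innate lymphoid cells that secrete IL-17A and IL-22. IL-17A signals through a receptor of IL-17RA and IL-17RC, and drives chemokines and growth factors that bring in neutrophils. IL-22 signals through IL-22RA1 and IL-10RB on epithelial cells, where STAT3 turns on antimicrobial and repair genes, while the protein encoded by Il22ra2 binds IL-22 in solution and keeps it from that receptor.

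The sequence before the transcription start is shown for 3 genes, the ligand gene Il17a and the receptor subunit genes Il17rc and Il22ra1, since Il17a and Il17rc stood apart between colitis and normal mice in opposite directions while Il22ra1 overlapped. The sequences are those of RefSeq on build GRCm38.p6, plus strand, 5′ to 3′, at chr1:20730655-20730904 for Il17a, chr6:113471205-113471426 for Il17rc and chr4:135727909-135728158 for Il22ra1. Capitals mark the matches to 3 motifs searched on both strands, TTCNNNGAA for STAT factors, AGGTCA for nuclear receptors and TGANTCA for AP-1.
Il17a: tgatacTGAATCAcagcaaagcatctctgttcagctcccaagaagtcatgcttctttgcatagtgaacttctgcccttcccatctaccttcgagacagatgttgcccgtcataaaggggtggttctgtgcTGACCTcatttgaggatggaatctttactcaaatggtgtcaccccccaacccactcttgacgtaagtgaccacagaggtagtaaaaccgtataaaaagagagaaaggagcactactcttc
Il17rc: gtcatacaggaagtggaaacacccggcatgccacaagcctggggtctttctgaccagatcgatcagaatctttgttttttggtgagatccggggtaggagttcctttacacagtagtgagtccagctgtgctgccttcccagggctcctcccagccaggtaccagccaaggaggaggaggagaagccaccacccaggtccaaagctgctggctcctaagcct
Il22ra1: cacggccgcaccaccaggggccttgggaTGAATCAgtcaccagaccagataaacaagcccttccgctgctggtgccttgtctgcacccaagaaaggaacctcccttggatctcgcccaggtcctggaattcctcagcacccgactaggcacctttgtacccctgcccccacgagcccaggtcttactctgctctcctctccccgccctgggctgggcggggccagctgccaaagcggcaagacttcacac
The Il17a sequence held AGGTCA, on the minus strand at 120 to 115 bases before the start, and TGANTCA at 244 to 238 bases before it. The Il22ra1 sequence held TGANTCA at 222 to 216 bases before the start, and the Il17rc sequence held none of the 3 motifs. Of 32851 mouse promoters of 250 bases, 14.0% held AGGTCA, 6.75% TGANTCA and 7.02% TTCNNNGAA. The Il17rc sequence was ended where the first annotated exon begins. Of the 8 members, 4 were matched to the promoter table. The window of Il22 is not shown, because all 250 of its bases lie inside the gene as RefSeq annotates it.

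In normal mice the receptor subunit genes were expressed, Il23a was at about 4 to 6 reads, and Il17a and Il22 were not detected. The order of the levels, in FPKM and so per transcript length, was Il17rc (75.2 ± 8.65, SD, n = 3), Il10rb (63.5 ± 9.55), Il22ra1 (29.2 ± 3.65), Il17ra (6.39 ± 0.981), Il22ra2 (0.647 ± 0.653) and Il23a (0.26 ± 0.0346), with Il22 and Il17a listed at 0 in all 3 mice. The neighbours Il17rc and Il10rb overlapped between mice, as did Il22ra2 and Il23a, and the other steps down to Il23a did not overlap. In colitis mice Il22 and Il17a stood above Il22ra2 and Il23a by their means, but these 4 genes overlapped from each to the next. By the means, the order in normal mice receiving BBR was that of normal mice, and the order in colitis mice receiving BBR was that of colitis mice. The epithelial marker genes Epcam, Cdh1, Krt8, Krt18, Krt19, Krt20, Vil1 and Cldn7 summed to 6780 to 13200 FPKM over the 12 mice, and 5 markers of squamous epithelium to 0.6 to 6.32 FPKM. The plot of the 8 genes by mouse shows these levels.

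**Figure D1:**
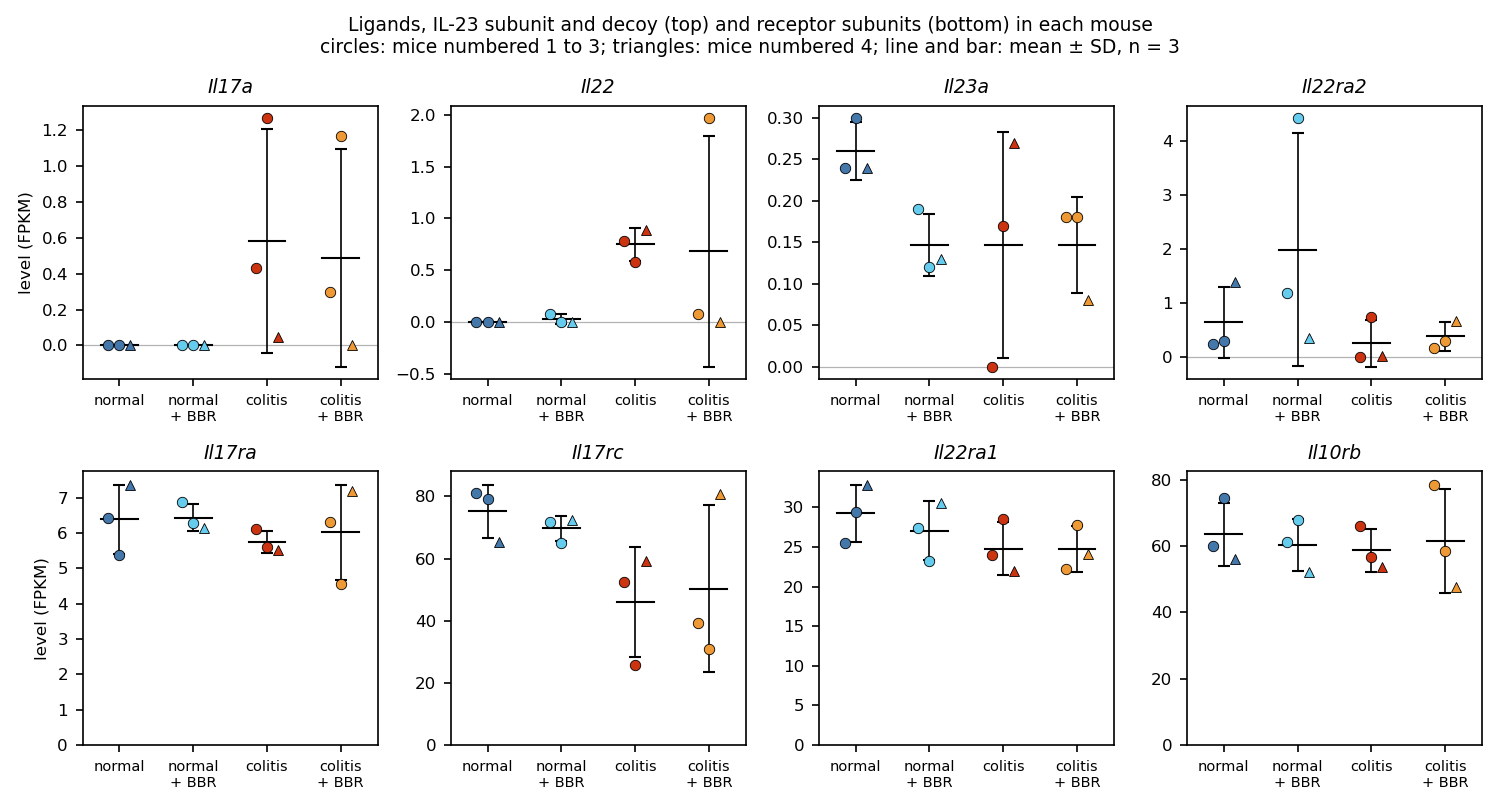
Level in FPKM of the 8 genes of the axis in each of the 12 mice, with circles for mice numbered 1 to 3, triangles for mice numbered 4, and the mean ± SD (n = 3) of each group as a line and bar. Il17a and Il22 were at 0 in all 3 normal mice and above 0 in all 3 colitis mice, while Il17ra, Il22ra1 and Il10rb overlapped between colitis and normal mice.

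Il17a encodes the neutrophil-recruiting cytokine of type 17 lymphocytes. It was listed at 0 FPKM in the 3 normal mice and in the 3 normal mice receiving BBR, and at 0.43, 1.27 and 0.05 FPKM in colitis mice numbered 1, 2 and 4. By the estimated worth of a read, these 3 values were about 6, 19 and 1 reads. In colitis mice receiving BBR it was at 0.3, 1.17 and 0 FPKM in those numbered 2, 3 and 4, or about 4, 17 and 0 reads. The transcript was thus seen only in mice given DSS, in 5 of 6 of them, with the highest value in 1 mouse of each DSS group and little or none in the mice numbered 4. Against a floor of 3 reads per library, 0.143 to 0.225 FPKM in normal mice, the mean of the colitis mice, 0.583 ± 0.624 FPKM (SD, n = 3), was at least 3.04-fold higher, where the floor covers counting error only. On the log2(FPKM + 0.1) scale the difference was 2.26 (95% interval 0.35 to 4.16, limma P = 0.0243, Benjamini-Hochberg adjusted p = 0.177, exact permutation p = 0.1), and it did not pass the adjusted limit of 0.05. Without colitis mouse 2 the difference was 1.5 (adjusted p = 0.454), and the mean of the others, 0.24 FPKM, was at least 1.25-fold above the floor. A fitted fold change against a group at 0 depends on the constant added, here and for the other genes at 0. The limma p-values rest on the spread between mice within groups, pooled over all 4 groups, so mice of groups outside a comparison also count. In bulk tissue, more cells of a type and more RNA per cell cannot be told apart.

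Il22 encodes the cytokine that acts on the epithelium. It was listed at 0 FPKM in the 3 normal mice and at 0.78, 0.58 and 0.89 FPKM in colitis mice numbered 1, 2 and 4, about 11, 8 and 19 reads. Of the normal mice receiving BBR, number 1 had 0.08 FPKM, about 1 read, and the other two had 0. Of the colitis mice receiving BBR, number 2 had 0.08 FPKM, about 1 read, number 3 had 1.97 FPKM, about 27 reads, and number 4 had 0. The 3 colitis mice thus lay close together and above every normal mouse, whereas with BBR a single mouse held nearly all of the signal. The mean of the colitis mice, 0.75 ± 0.157 FPKM (SD, n = 3), was at least 3.7-fold above the 3-read floor of the normal mice, and the difference on the log2(FPKM + 0.1) scale was 3.07 (95% interval 1.2 to 4.94, limma P = 0.00388, adjusted p = 0.0949, exact permutation p = 0.1). The spread behind that limma P also drew on the colitis mice receiving BBR, at 0.08, 1.97 and 0 FPKM. With the mice numbered 4 as a block Il22 passed the limit (adjusted p = 0.0462), and over all 14 alternatives its adjusted p ranged from 0.0462 to 0.263. A near-identical gene, Iltifb, has no row of its own in the table, so reads of the pair cannot be assigned to Il22 with certainty.

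Il23a encodes the subunit that is particular to IL-23. It was at 0.24, 0.3 and 0.24 FPKM in normal mice numbered 1, 3 and 4, and at 0, 0.17 and 0.27 FPKM in colitis mice numbered 1, 2 and 4. With BBR it was at 0.19, 0.12 and 0.13 FPKM in normal mice and at 0.18, 0.18 and 0.08 FPKM in colitis mice. All 12 values correspond to about 7 reads or fewer, and the colitis values overlapped those of normal mice, so a difference in Il23a was not detectable at this depth (log2 fold change −0.74, 95% interval −1.75 to 0.28, limma adjusted p = 0.35). In normal mice receiving BBR all 3 values lay below those of normal mice (log2 fold change −0.55, limma adjusted p = 1), a separation that 9.62% of all tested genes showed in that comparison, 5.46% in this direction. In the same comparison the 3-read floor of Il23a was 0.132 to 0.192 FPKM in normal mice receiving BBR, close to the values themselves.

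Of the IL-17 receptor subunit genes, Il17rc was lower in every colitis mouse than in any normal mouse, and Il17ra overlapped. Il17ra, the subunit shared by receptors of the IL-17 family, was at 6.43, 5.39 and 7.35 FPKM in normal mice numbered 1, 3 and 4 and at 6.1, 5.6 and 5.53 FPKM in colitis mice numbered 1, 2 and 4. The groups overlapped, and the log2 fold change was −0.14 (95% interval −0.63 to 0.34, limma adjusted p = 0.707), with its sign reversed by either scaling between mice that was tried. Il17rc, the partner that completes the receptor for IL-17A, was at 80.99, 79.25 and 65.22 FPKM in normal mice and at 52.6, 25.89 and 59.25 FPKM in colitis mice. Every colitis mouse was below every normal mouse, with means of 45.9 ± 17.7 and 75.2 ± 8.65 FPKM (SD, n = 3 each) and a ratio of 0.611. On the log2 scale the difference was −0.79 (95% interval −1.58 to −0.0040, limma P = 0.049, adjusted p = 0.232), and the exact permutation test gave p = 0.1, two-sided, the smallest that 3 mice against 3 allow. Without colitis mouse 2 the difference was −0.42. The median of all tested genes was −0.32 in this comparison, and −0.049 after quantile normalization. At an unadjusted P of at most 0.05, 15.9% of all tested genes were lower, and 22.2% were lower without overlap.

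The ratio of Il17rc to Il17ra, which does not depend on the scaling between mice, was 12.1 ± 2.95 (SD, n = 3) without and 7.99 ± 3.09 with DSS, and these values overlapped (exact permutation test on log2 ratios, two-sided, p = 0.2). Il17re, which encodes the partner of IL-17RA in the receptor for IL-17C, was at 9.54, 9.8 and 9.98 FPKM in normal mice and at 4.58, 2.27 and 6.7 FPKM in colitis mice. Its log2 fold change was −1.22 (limma adjusted p = 0.251). Il17rc was lowest in colitis mouse 2 and in colitis mouse 3 receiving BBR, and so was Il17re. The ratio of Il17rc to Il17re was 8.49, 8.09 and 6.54 in normal mice and 11.5, 11.4 and 8.84 in colitis mice, higher in every colitis mouse (exact permutation test on log2 ratios, two-sided, p = 0.1), whereas the mean ratio to Il17ra was lower in colitis mice. In the colitis mouse numbered 4 receiving BBR both were at the level of normal mice, at 80.89 FPKM for Il17rc and 10.48 FPKM for Il17re. The 6 smooth muscle markers moved in the same comparison, with a summed level of 1630 to 3040 FPKM in normal and 70.8 to 651 FPKM in colitis mice and 6 of 6 lower at an unadjusted P of at most 0.05, and their part in the level of Il17rc was not tested. The epithelial markers overlapped, with sums of 9410 to 13200 FPKM in normal and 9120 to 12800 FPKM in colitis mice and 0 of 8 at that limit in either direction.

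The receptor subunit genes of IL-22 overlapped between colitis and normal mice. Il22ra1, the epithelial subunit that gives the receptor its specificity, was at 25.48, 29.47 and 32.76 FPKM in normal mice and at 23.95, 28.47 and 21.95 FPKM in colitis mice. Il10rb, the subunit that the IL-10 receptor also uses, was at 60.14, 74.32 and 56.16 FPKM in normal and at 65.97, 56.66 and 53.53 FPKM in colitis mice. The log2 fold changes were −0.24 for Il22ra1 (95% interval −0.64 to 0.16, limma adjusted p = 0.437) and −0.11 for Il10rb (95% interval −0.57 to 0.36, limma adjusted p = 0.77), and both became positive when each mouse was centred on its median. The ratio of Il10rb to Il22ra1 was 2.2 ± 0.427 (SD, n = 3) without and 2.39 ± 0.384 with DSS (exact permutation test on log2 ratios, two-sided, p = 0.6). Il22ra2, the gene of the binding protein, was at 0.24, 0.3 and 1.4 FPKM in normal and at 0, 0.75 and 0.02 FPKM in colitis mice, the last of these about 1 read. In normal mice receiving BBR it was at 1.18, 4.42 and 0.35 FPKM, and in colitis mice receiving BBR at 0.18, 0.3 and 0.68 FPKM. The mice of 1 group differed more from each other than the group means did, and none of these comparisons passed (colitis against normal, log2 fold change −1.44, 95% interval −3.57 to 0.69, limma adjusted p = 0.38).

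Of the 8 genes, 0 passed limma's adjusted limit between colitis and normal mice, where 1.08% of all tested genes did. In the fit that blocked on the mice numbered 4, Il22 passed, as did 9.22% of all tested genes, so 1 of 8 is near that background. By the unadjusted limit of 0.05 that the study used, 3 of the 8 passed, with Il17a and Il22 higher and Il17rc lower, against 21.4% of all tested genes. The same 3 genes were those whose groups did not overlap, against 29.3% of all tested genes, so the members' share is near the background. Il17a and Il22 were among the tested genes only because of their levels in mice given DSS. Their places in these counts are thus not independent of the filter. By direction, 5.56% of all tested genes were higher by that limit and 7.1% were higher without overlap. The other 5 members had fold changes between −1.44 and −0.11 on the log2 scale.

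The question of the second main comparison was what berberine did in DSS colitis. Of the 8 genes, 0 differed between the 2 colitis groups by limma at the adjusted limit or at an unadjusted P of at most 0.05, where 0% and 6.39% of all tested genes did, and the values of 0 members were free of overlap, against 7.08% of all tested genes. Il17a had a mean of 0.49 ± 0.608 FPKM with BBR and 0.583 ± 0.624 FPKM without (SD, n = 3 each, log2 fold change −0.37, 95% interval −2.27 to 1.54, limma adjusted p = 1). Il22 had a mean of 0.683 ± 1.12 FPKM with BBR and 0.75 ± 0.157 FPKM without, and its log2 fold change was −1.33 (95% interval −3.20 to 0.54, limma adjusted p = 0.963). The value of Il22 rested on 1 mouse, since without colitis mouse 3 receiving BBR the log2 fold change was −2.65 and passed the limit (limma adjusted p = 0.0353), as did 0.379% of all tested genes. Without colitis mouse 4 receiving BBR the log2 fold change of Il22 was −0.46. Il17a also changed its sign with the mouse left out, from −1.26 without colitis mouse 3 receiving BBR to 0.58 without number 4 of that group.

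The receptor subunit genes overlapped between colitis mice with and without BBR. Il17rc was at 39.11, 30.93 and 80.89 FPKM in colitis mice numbered 2, 3 and 4 receiving BBR, with number 4 at the level of normal mice and the other two within the range of colitis mice (log2 fold change 0.093, 95% interval −0.69 to 0.88). Il17ra was at 6.31, 4.56 and 7.2 FPKM (log2 fold change 0.044, 95% interval −0.44 to 0.53). Il22ra1, at 22.18, 27.83 and 24.17 FPKM, had the narrowest interval of the 8 genes (log2 fold change −0.0015, 95% interval −0.40 to 0.40). Il10rb was at 78.52, 58.52 and 47.65 FPKM (log2 fold change 0.043, 95% interval −0.42 to 0.51), so differences within these intervals were not detectable with 3 mice a group. The plot of fold changes gives the intervals of all 8 genes.

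**Figure D2:**
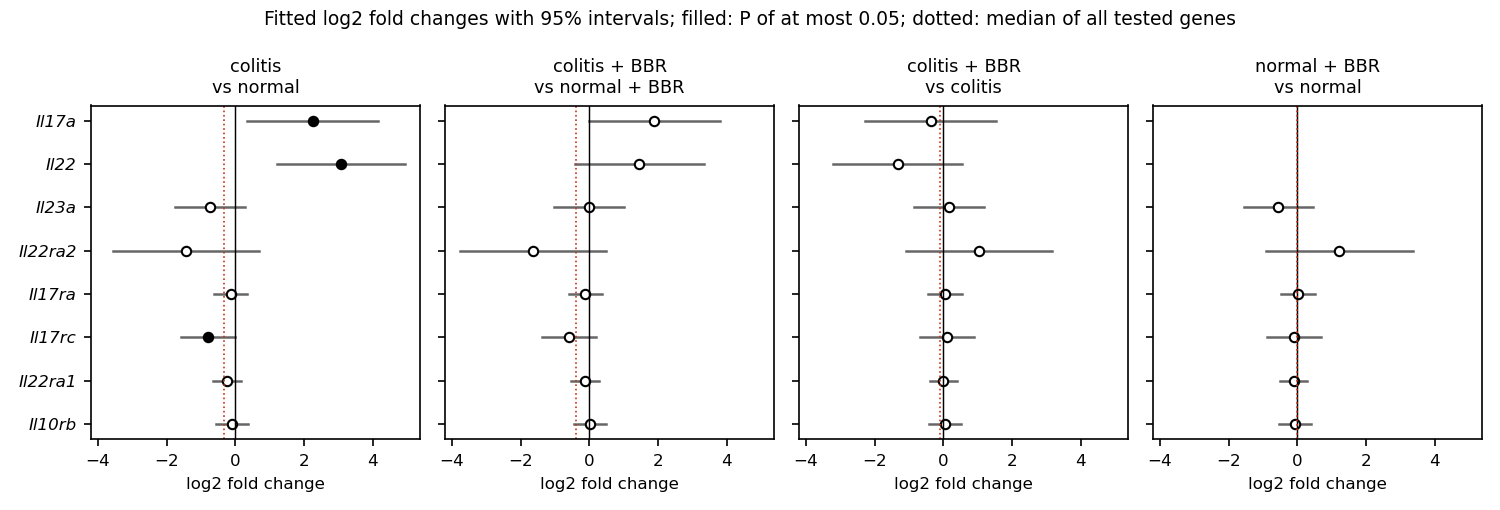
Log2 fold change (x axis, on the log2(FPKM + 0.1) scale) with its 95% interval for each gene (y axis) in 4 comparisons, with filled points for an unadjusted limma P of at most 0.05 and the median of all tested genes dotted. Il17a, Il22 and Il17rc have filled points between colitis and normal mice, and no gene has one in the other 3 comparisons; Il17a and Il22 have no fold between the 2 normal groups, where both were at or under the 3-read floor.

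In normal mice receiving BBR, compared with normal mice, 0 of the 8 genes passed the adjusted limit or an unadjusted P of at most 0.05 in limma, where 0% and 1.36% of all tested genes did. Il17rc was at 71.65, 65.13 and 72.35 FPKM in these mice, within or near the range of normal mice, with a log2 fold change of −0.10. Il17ra, at 6.87, 6.28 and 6.14 FPKM, Il22ra1, at 27.35, 23.24 and 30.61 FPKM, and Il10rb, at 61.26, 67.76 and 52.17 FPKM, had log2 fold changes of 0.018, −0.11 and −0.071.

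Between the 2 groups that received BBR, which shows the effect of DSS in its presence, 0 of the 8 genes passed the adjusted limit or an unadjusted P of at most 0.05 in limma, where 0.0392% and 19.7% of all tested genes did. The values of 0 members were free of overlap, against 20.2% of all tested genes. Il17a was at least 2.47-fold above the 3-read floor of the normal mice receiving BBR by its mean (log2 fold change 1.89, 95% interval −0.017 to 3.8, limma P = 0.0518, exact permutation p = 0.4, adjusted p = 0.256). Without the colitis mouse numbered 4 receiving BBR it passed (log2 fold change 2.83, adjusted p = 0.0397), as did 14.7% of all tested genes. Without number 3 of that group the log2 fold change of Il17a was 1.00 (adjusted p = 0.62), and the mean of the others, 0.15 FPKM, was under the mean floor of 0.198 FPKM. Il22 had a log2 fold change of 1.46 (95% interval −0.41 to 3.33, adjusted p = 0.325), which was 0.14 without colitis mouse 3 receiving BBR. Il17rc had a mean of 50.3 ± 26.8 FPKM against 69.7 ± 3.98 FPKM (SD, n = 3 each, log2 fold change −0.59, adjusted p = 0.336). The interaction term, which asks whether the DSS effect differed with BBR, passed for 0 of the 8 genes by the adjusted limit or by an unadjusted P of at most 0.05, against 0% and 2.42% of all tested genes, and its smallest P among them was 0.208, for Il22.

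The other ligands and receptors of the IL-17 family were 8 listed genes, all tested. Between colitis and normal mice 0 of 8 passed the adjusted limit, 1 was higher and 1 lower at an unadjusted P of at most 0.05, where 5.56% and 15.9% of all tested genes were, and their median log2 fold change was −0.55 against −0.32 for all genes. The higher gene was Il17c, an epithelial cytokine, at 0, 0 and 0.08 FPKM in normal mice and at 0.43, 1.33 and 0.15 FPKM in colitis mice. Its adjusted p was 0.102 by limma. With BBR it was at 0 FPKM in the 3 normal mice and at 0.15, 0.89 and 0.24 FPKM in the colitis mice. The mean of these colitis mice was at least 1.29-fold above the mean 3-read floor of the normal mice receiving BBR, 0.331 FPKM. Its values of 0.15 and 0.24 FPKM lay under that floor. Il17c was thus above 0 in all 6 DSS mice but not clearly detected in each. Like Il17a, Il17c was highest in colitis mouse 2 and in colitis mouse 3 receiving BBR. The lower gene was Il17rd, which encodes a receptor-like regulator, with a log2 fold change of −1.01 (limma adjusted p = 0.213) and means of 1.12 FPKM in normal and 0.49 FPKM in colitis mice. Il17f, the closest relative of Il17a, had 0.36, 0.15 and 0.08 FPKM in normal and 0.43, 0.47 and 0.23 FPKM in colitis mice, which overlapped (limma adjusted p = 0.439).

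The partners of IL-23 and regulators of type 17 cells were 15 listed genes, of which 12 were tested. Il12b, which encodes the p40 subunit that pairs with p19, had means of 0.0833 FPKM in normal and 0.09 FPKM in colitis mice, and Il23r, the receptor gene, 0.00667 and 0.0333 FPKM, both under the filter. Il12rb1, the receptor subunit shared with IL-12, had means of 0.12 and 0.317 FPKM (log2 fold change 0.89, limma adjusted p = 0.296). The list had 1 gene that fell past the adjusted limit, as 0.424% of all tested genes did. This was Irf4, a lymphocyte and myeloid transcription factor gene, which fell from 0.52, 0.68 and 1.34 FPKM to 0.14, 0.16 and 0.16 FPKM (log2 fold change −1.81, limma adjusted p = 0.0466), a call lost in all 6 fits that left out 1 mouse of these groups, with either other constant, after centring and over the mice numbered 1 to 3 alone. Stat3, the transcription factor downstream of IL-22 and IL-23, was at 33.1 and 45.3 FPKM without overlap (log2 fold change 0.44, limma adjusted p = 0.255). The list's median was −0.033, and the summed level of 8 T cell markers was 4.57 to 6.21 FPKM in normal and 5.63 to 10.5 FPKM in colitis mice, with 1 of 7 tested markers higher at an unadjusted P of at most 0.05. The sum was highest in colitis mouse 2, the mouse with the highest Il17a, and its part in the level of Il17a was not tested.

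Of 22 genes of IL-17 receptor signalling, 0 passed the adjusted limit between colitis and normal mice and 6 were higher at an unadjusted P of at most 0.05, where 5.56% of all tested genes were higher at that limit, with a list median of 0.021. With a block for the mice numbered 4, or after quantile normalization, 2 of the 22 passed the adjusted limit, where 9.22% and 1.68% of all tested genes did. Traf3ip2, which encodes the adaptor Act1, overlapped, with means of 13.3 and 14.0 FPKM (log2 fold change 0.065, 95% interval −0.38 to 0.51). Nfkbiz, an NF-κB cofactor induced by IL-17A, was at 16.63, 10.22 and 14.64 FPKM in normal and 39.24, 33.91 and 29.14 FPKM in colitis mice. Its log2 fold change was 1.31 (limma adjusted p = 0.0555), and in colitis mice receiving BBR it stood at 30.71, 46.35 and 22.33 FPKM. Of the IL-22 receptor kin and signalling genes, 9 of 11 were in the table and 7 were tested, with a median of 0.23. Socs3, the STAT3-induced feedback inhibitor, was the 1 gene of this list past the limit. It rose from 4.65, 2.25 and 3.44 FPKM to 38.27, 40.18 and 60.56 FPKM (log2 fold change 3.74, SE 0.401, limma adjusted p = 0.00325), and it passed in all 6 fits that left out 1 mouse of these groups. Il10ra, the specific subunit of the IL-10 receptor, overlapped with means of 1.12 and 1.75 FPKM, and Il20ra was under the filter, with means of 0.0233 and 0.0533 FPKM.

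Most of the listed pathway genes past the adjusted limit were targets of IL-17 or IL-22. Of 19 tested IL-17 target genes, 9 rose past the adjusted limit in colitis mice and 0 fell, and of 16 tested IL-22 target genes 8 rose and 0 fell, where 0.653% of all tested genes rose. Over all tested genes, 100 rose and 65 fell, and after quantile normalization 185 rose and 73 fell. Of these lists, 3 genes are shared, Lcn2, S100a8 and S100a9, and many of the targets also answer to other cytokines. The 6 pathway lists were chosen with earlier results of these data known, so their counts and medians are no independent test. Cxcl2, Cxcl3, Csf3, Il6, S100a8, Reg3b and Reg3g passed the filter only through the mice given DSS. The IL-17 targets that rose were the chemokine genes Cxcl1, Cxcl2, Cxcl3, Ccl2 and Ccl7, the growth factor gene Csf3, Il6, S100a8 and the protease gene Mmp3. Their mean levels went from 0.0433 to 10.7 FPKM for Cxcl2 (limma adjusted p = 0.00707), from 0 to 4.49 FPKM for Cxcl3 (0.0477) and from 0.0433 to 3.66 FPKM for Il6 (0.0218). They went from 0.537 to 17.5 FPKM for Ccl2 (limma adjusted p = 0.0289), from 0.983 to 12.5 FPKM for Ccl7 (0.0312) and from 0.56 to 42.0 FPKM for Mmp3 (0.0241). Without colitis mouse 2 the colitis means were 6.51 FPKM for Cxcl2, 2.87 FPKM for Cxcl3, 11.1 FPKM for Ccl2 and 21.4 FPKM for Mmp3. The median log2 fold change of the IL-17 list was 4.40, and 4.22 with the 3 genes at 0 in normal mice set at their bound, and that of the IL-22 list was 3.39, against −0.32 for all genes. The counts depended on single mice, with 2 to 12 IL-17 targets and 1 to 10 IL-22 targets past the limit when 1 mouse of these groups was left out, and 16 and 9 over the mice numbered 1 to 3 alone. The shares of all tested genes past the limit in these fits were 0.0718% to 1.38% and 5.25%. Counts of 2 IL-17 targets were reached without any one of normal mice 1, 3 and 4 or colitis mice 1 and 2, where IL-22 targets numbered 1 or 2. Socs3, Cxcl2 and Csf3 passed in all 6 of these fits.

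Cxcl1, a neutrophil chemokine gene, was at 0.38, 0.39 and 0.59 FPKM in normal and at 18.97, 103.22 and 13.24 FPKM in colitis mice (log2 fold change 5.77, limma adjusted p = 0.0288). Csf3, which encodes the granulocyte growth factor G-CSF, was listed at 0 in normal mice and was at 2.03, 2.76 and 1.44 FPKM in colitis mice, at least 13.2-fold above the mean 3-read floor (limma adjusted p = 0.00251). S100a8, a calprotectin subunit gene abundant in neutrophils, was at 0 in normal and at 336.29, 289.73 and 24.9 FPKM in colitis mice (limma adjusted p = 0.0254). Every colitis mouse was above every normal mouse for these 3 genes, with number 4 the lowest of them each time. S100a9, the other subunit, had means of 0.15 and 106 FPKM (limma adjusted p = 0.0514), Lcn2, a siderophore-binding protein gene, 3.88 and 109 FPKM (adjusted p = 0.0647) and Cxcl5, another neutrophil chemokine gene, 0.97 and 47.2 FPKM (adjusted p = 0.0674), and these 3 missed the limit without overlap. Without colitis mouse 2 the colitis mean was 31.5 FPKM for Lcn2 and 30.2 FPKM for Cxcl5. The 8 neutrophil markers, 3 of which are IL-17 targets by the list, summed to 263 to 708 FPKM in normal and 603 to 4190 FPKM in colitis mice, with 7 of 8 higher at an unadjusted P of at most 0.05. Macrophage and dendritic cell markers summed to 191 to 249 FPKM in normal and 324 to 809 FPKM in colitis mice, with 3 of 8 higher at that limit. Of all tested genes, 5.56% were higher at that limit. The part of either marker list in the target levels was not tested.

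Among IL-22 targets, the antimicrobial lectin genes were at or near 0 in normal mice. Reg3b was at 0, 0.14 and 0 FPKM in normal and 400.55, 53.61 and 27.49 FPKM in colitis mice (limma adjusted p = 0.0433). Reg3g was at 0 in normal and 79.69, 29.46 and 4.92 FPKM in colitis mice, at least 128-fold above the mean 3-read floor, and at least 57.7-fold without colitis mouse 1 (limma adjusted p = 0.0362). Saa3, an acute phase gene, had 0.51, 1.1 and 0.92 FPKM in normal and 432.98, 2181.25 and 59.71 FPKM in colitis mice (log2 fold change 8.72, limma adjusted p = 0.0279). The order of colitis mice differed between the targets, with Reg3b and Reg3g highest in number 1 and Saa3 and Cxcl1 highest in number 2, while Il22 itself was highest in number 4. The other IL-22 targets past the limit were S100a8, Socs3, Fut2, an epithelial fucosyltransferase gene (50.9 to 185 FPKM by the means, log2 fold change 1.87), Lrg1 (2.35 to 136 FPKM, log2 fold change 5.55) and the epithelial oxidase gene Duox2 (24.3 to 202 FPKM, log2 fold change 3.04). The plot of target genes by mouse shows the spread within the groups.

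**Figure D3:**
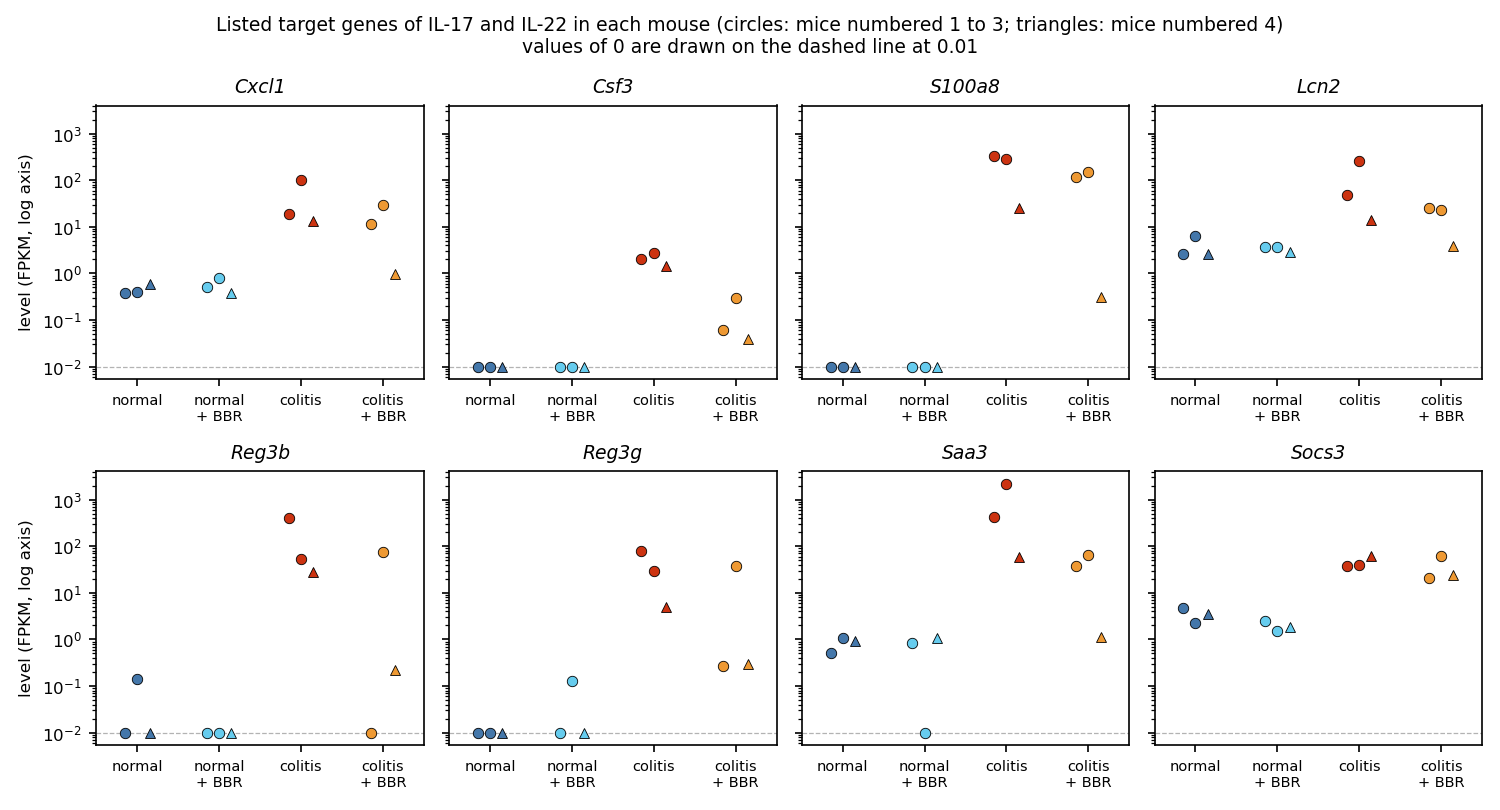
Level in FPKM on a log axis of 8 listed target genes of IL-17 and IL-22 in each of the 12 mice, with circles for mice numbered 1 to 3, triangles for mice numbered 4, and values of 0 drawn at 0.01. All 3 colitis mice lie above all 3 normal mice for each gene, and the colitis mouse numbered 4 receiving BBR lies near the normal mice for S100a8 (0.31 FPKM) and Lcn2 (3.82 FPKM) but not for Socs3 (23.95 FPKM).

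With BBR, 0 of the target genes differed from colitis mice by limma's adjusted limit, and 1 IL-17 target did with a constant of 1, without a filter, or with a block for the mice numbered 4, where at most 0.0261% of all tested genes passed. At an unadjusted P of at most 0.05, 9 of 19 IL-17 targets and 5 of 16 IL-22 targets were lower and 0 were higher, against 5.2% and 1.19% of all tested genes. The list medians were −2.75 and −0.65, against −0.09 for all genes. Csf3 was at 0.06, 0.3 and 0.04 FPKM in colitis mice receiving BBR, below all 3 colitis mice, and had the smallest P of all genes (log2 fold change −3.34, 95% interval −4.28 to −2.41, limma adjusted p = 0.0844). Reg3b was at 0, 75.31 and 0.22 FPKM (limma adjusted p = 0.548), Reg3g at 0.27, 36.86 and 0.29 FPKM (adjusted p = 0.698) and Saa3 at 38.02, 63.57 and 1.13 FPKM (adjusted p = 0.568). Reg3b and Reg3g were thus high in number 3, the mouse that also held nearly all of the Il22 signal with BBR, and low in the other two. Socs3, at 20.76, 61.15 and 23.95 FPKM, and Nfkbiz overlapped between the 2 colitis groups (limma adjusted p = 1 for both).

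Cxcl2 was at 0.49, 3.73 and 0.26 FPKM in colitis mice numbered 2, 3 and 4 receiving BBR and at 6.93, 19 and 6.09 FPKM in colitis mice numbered 1, 2 and 4 (log2 fold change −3.33, limma adjusted p = 0.435). Ccl2 (3.11 against 17.5 FPKM by the means, adjusted p = 0.51) and Mmp3 (4.97 against 42.0 FPKM, adjusted p = 0.486) were also lower with BBR without overlap, and missed the adjusted limit. Mmp13, a collagenase gene of the same list, was at 1.24, 3.49 and 0.12 FPKM with BBR and at 27.01, 161.99 and 9.99 FPKM in colitis mice, without overlap (log2 fold change −5.12, limma adjusted p = 0.418). Of all tested genes, 7.08% did not overlap between these groups. S100a8, Lcn2 and Cxcl5 overlapped between the 2 colitis groups. S100a8 was at 118.47, 147.68 and 0.31 FPKM with BBR (limma adjusted p = 0.962), Lcn2 at 26.01, 23.47 and 3.82 FPKM (adjusted p = 0.771) and Cxcl5 at 13.27, 95.39 and 1.62 FPKM (adjusted p = 1). Without colitis mouse 3 receiving BBR, 5 IL-17 targets and 3 IL-22 targets passed the adjusted limit, where 0.379% of all tested genes did. The macrophage and dendritic cell markers were lower with BBR at an unadjusted P of at most 0.05 in 5 of 8 cases, with summed levels of 324 to 809 FPKM in colitis and 145 to 324 FPKM with BBR, and the T cell markers in 1 of 7, with sums of 5.63 to 10.5 and 2.21 to 6.13 FPKM. The T cell sum with BBR was highest in number 3. Of 8 neutrophil and 5 fibroblast markers, 1 each was lower at that limit, with 8 of 8 and 5 of 5 fold changes negative and medians of −1.50 and −0.998, and the 6 smooth muscle markers had positive fold changes with a median of 1.70, 0 of them at that limit. Over all tested genes, 5.2% were lower and 1.19% higher at that limit. The part of these markers in the target levels was not tested. Between the 2 groups that received BBR, Socs3 alone of the listed targets passed the limit (log2 fold change 3.96, limma adjusted p = 0.00786), while 10 of 19 IL-17 targets and 10 of 16 IL-22 targets were higher and 1 and 0 lower at an unadjusted P of at most 0.05, against 2.37% and 17.3% of all tested genes. The call of Socs3 was lost without normal mouse 3 receiving BBR (adjusted p = 0.0842). Without colitis mouse 4 receiving BBR, 10 IL-17 targets and 10 IL-22 targets passed the adjusted limit, where 14.7% of all tested genes did. With a block for the mice numbered 4, 1 and 4 passed, where 1.75% of all tested genes did. Between these groups 4 of 8 neutrophil markers were higher, with sums of 420 to 793 FPKM in normal and 491 to 2950 FPKM in colitis mice receiving BBR, and 3 of 3 endothelial and 3 of 5 fibroblast markers were lower, at an unadjusted P of at most 0.05. Their part in the target levels was not tested. Between the 2 normal groups 0 targets passed either limit in limma, and the list medians were 0 and −0.013. The plot of the pathway lists shows all tested genes.

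**Figure D4:**
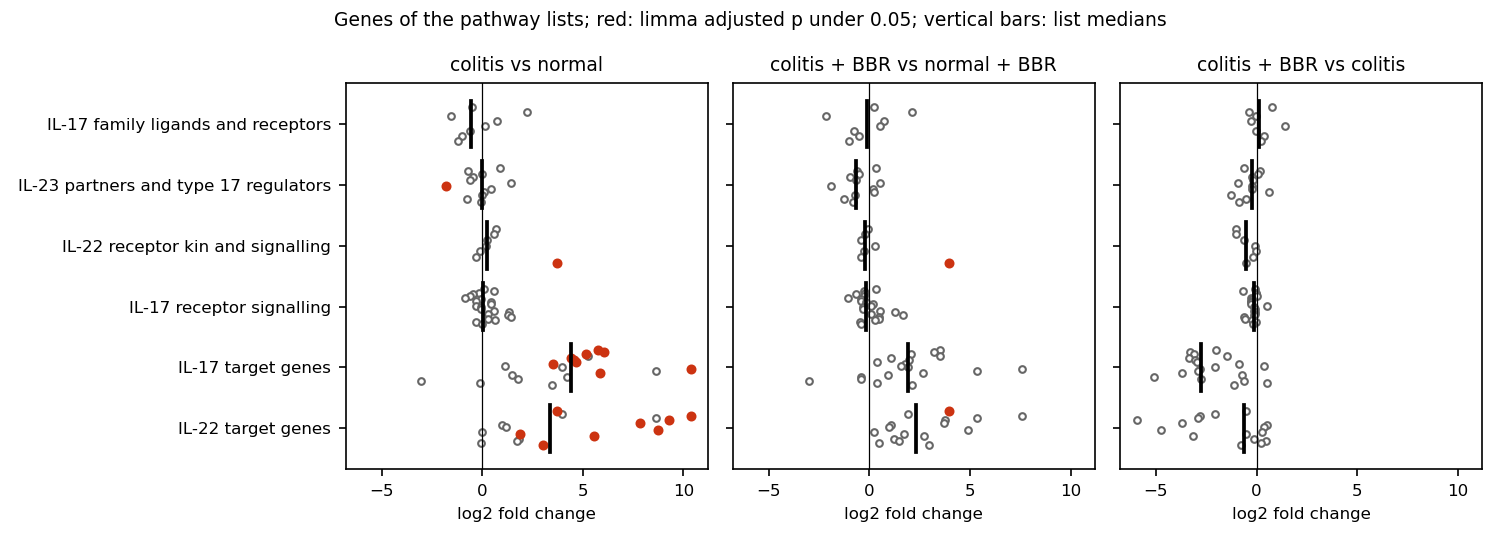
Log2 fold change (x axis) of each tested gene of 6 pathway lists (y axis) in 3 comparisons, with genes past limma's adjusted limit in red and the list medians as vertical bars. The red points lie in the target lists of colitis against normal mice, apart from Irf4 and Socs3, and Socs3, drawn in the 2 lists that hold it, is the red gene of the comparison with BBR in both groups.

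For the 4 members with a mean of at least 1 FPKM, the genes with the most similar pattern over the 12 mice were found among 11942 genes of at least that mean by the root mean square difference of centred log2 values. For Il17rc these were Zadh2 (0.13), Plekha5 (0.134) and Rmnd5a (0.145). For Il17ra they were Zdhhc5 (0.114), Tfg (0.126) and Clcn7 (0.127), for Il22ra1 Capza2 (0.144), Dcun1d4 (0.149) and Oxr1 (0.151), and for Il10rb Stambp (0.0918), Relb (0.113) and Psd4 (0.115). None of the genes named here belongs to the 6 pathway lists.

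Over the mice numbered 1 to 3 alone, Il17a passed the adjusted limit between colitis and normal mice (log2 fold change 3.09, limma adjusted p = 0.0487) and between the 2 groups that received BBR (2.83, adjusted p = 0.039). In these fits 5.25% and 15% of all tested genes passed, so 1 of 8 members is under the background in the second. In those fits Il22 had 2.95 (adjusted p = 0.106) and Il17rc −1.12 (adjusted p = 0.0761) between colitis and normal mice. Among the mice numbered 4, of which each group has 1, Il17a was at 0.05 FPKM with colitis and 0 in the other 3, Il22 at 0.89 FPKM with colitis and 0 in the other 3, and Il17rc at 59.25 FPKM with colitis and 65.22, 72.35 and 80.89 FPKM in the normal mouse, the normal mouse receiving BBR and the colitis mouse receiving BBR. The value of Il17a in the colitis mouse numbered 4 was under the 3-read floor, so it gives no direction within these mice.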

How the data were processed

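Rectal RNA of 12 mice was sequenced as 50-base single-end reads. The authors filtered reads with SOAPnuke, and by the submitters' processing notes aligned them with Bowtie2 2.2.5 on build mm9 and estimated levels with RSEM 1.2.12. They deposited 1 table of values per gene and mouse, taken here as FPKM, without counts, so the worth of 1 read was read off the lowest values. The labels and the methods name different library kits and sequencers. Genes with a mean of at least 0.1 FPKM were tested on log2(FPKM + 0.1) with limma 3.58.1 (R 4.3.3), with a mean-variance trend and 1 fit over the 4 groups, and p-values were adjusted over all 15315 tested genes by the Benjamini-Hochberg method. Exact permutation tests were two-sided, over all splits of 3 mice against 3 (Python 3.11.15, NumPy 2.4.6). The code was tested on simulated data with 200 changed genes.

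Genes were named by rule: the 8 members, listed pathway genes past the adjusted limit, receptor, adaptor and target genes listed by name, and the 3 genes nearest to each member with a mean of at least 1 FPKM. Il17c and Mmp13 were named after their values were seen. Of the genes listed by name, 1 is not reported here. The members, the 6 pathway lists and the 9 marker lists were chosen with earlier results of these data known. Alternatives were other constants of 1 and 0.01, other filters, quantile normalization, median centring, blocks for replicate number, leaving out each mouse and, chosen after seeing the data, the mice numbered 1 to 3 alone.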

Additional observations from a re-analysis of the deposited data

How the results depend on the processing

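Of 600 member values recomputed under the alternatives, 537 kept direction and side of the adjusted limit, 57 reversed, 38 of them with 1 mouse left out, and 6 passed only in an alternative. The cause was not tested. Genes called between colitis and normal mice (165) numbered 91 with a constant of 0.01, 71 with a filter at a mean of 1, 258 after quantile normalization, 734 with the replicate block, 1412 with mice numbered 4 as a block and 804 over mice numbered 1 to 3 alone. Between the 2 colitis groups (0) they numbered 4 and 2 with constants of 1 and 0.01, 1 without a filter, 1 with the replicate block and 2 with the number 4 block. Between the 2 groups receiving BBR (6) they numbered 3 after centring, 268 with the number 4 block and 2302 over mice 1 to 3. With 1 mouse left out these counts ranged from 11 to 211, 0 to 58 (58 without colitis mouse 3 receiving BBR) and 0 to 2255 (2255 without number 4 of that group). Members past the limit numbered 1 between colitis and normal mice with either block (Il22, adjusted p = 0.0497 with the replicate block and 0.0462 with the number 4 block) and over mice 1 to 3, 1 between the groups receiving BBR over mice 1 to 3, and 0 to 1 in the last 2 comparisons with 1 mouse left out. Deviations from the group means correlated with a mean r of 0.34 between mice of the same number and −0.103 between mice of different numbers, and the 6 pairs of mice numbered 4 had an r of 0.357 or more. The numbers were not taken as pairs, because 1 of 13 pairs had an r under 0.1, at 0.0777. That reason does not cover the mice numbered 4, and without a term for them their shared deviation stays in the spread of the main fit.

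Reversed log2 fold changes between colitis and normal mice were 0.18 for Il17ra after quantile normalization, and 0.20 for Il17ra, 0.098 for Il22ra1 and 0.23 for Il10rb after centring. Between the 2 colitis groups they were 0.10 for Il22ra1 (quantile), 0.15 for Il22ra1 (centring), and −0.12 for Il17ra and −0.085 for Il17rc over mice 1 to 3. Between the groups receiving BBR they were 0.32, 0.10 and 0.35 for Il17ra, Il22ra1 and Il23a (quantile), 0.34, 0.33 and 0.43 (centring), −0.045 for Il10rb (replicate block) and 0.15 for Il23a over mice 1 to 3. In the interaction they were 1.12 and 0.11 for Il22ra2 (constant of 0.01, quantile) and −0.28 for Il17ra over mice 1 to 3. With 1 mouse left out, Il10rb ranged from −0.20 to 0.0092 between colitis and normal mice. Between the 2 colitis groups Il17a ranged from −1.26 to 0.58, Il17ra from −0.095 to 0.23, Il17rc from −0.31 to 0.38, Il22ra1 from −0.090 to 0.10, Il23a from −0.39 to 0.56 and Il10rb from −0.15 to 0.21. Between the normal groups Il17ra ranged from −0.097 to 0.12 and Il10rb from −0.16 to 0.047. Between the groups receiving BBR Il17ra ranged from −0.26 to 0.069, Il23a from −0.13 to 0.19 and Il10rb from −0.19 to 0.17. In the interaction Il17a ranged from −1.26 to 0.58, Il17ra from −0.11 to 0.21, Il17rc from −0.21 to 0.48, Il22ra2 from −0.998 to 0.79 and Il10rb from −0.076 to 0.28. With the filter at a mean of 1, Il17a, Il22, Il22ra2 and Il23a were not tested. Values under the 3-read floor could not show a difference.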

Other observations

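The remaining marker lists gave these values between colitis and normal mice, with 0 of their genes past limma's adjusted limit apart from the neutrophil list. In this comparison 5.56% of all tested genes were higher and 15.9% lower at an unadjusted P of at most 0.05, and 22.2% were lower without overlap. B cell markers summed to 4.35 to 20.9 FPKM in normal and 2.26 to 8.49 FPKM in colitis mice (0 of 4 at an unadjusted P of at most 0.05, median log2 fold change −0.36). Fibroblast markers summed to 193 to 287 and 142 to 517 FPKM (0 of 5, median −0.35). Endothelial markers summed to 14.2 to 16.0 FPKM in normal and 3.61 to 8.7 FPKM in colitis mice, without overlap (2 of 3 lower, median −1.27). Squamous markers summed to 1.27 to 2.68 and 1.9 to 6.32 FPKM, with Krt4 at 0 in all 3 normal mice (1 of 2 tested higher, median 0.91). Macrophage and dendritic cell markers summed to 191 to 249 FPKM in normal and 324 to 809 FPKM in colitis mice (3 of 8 higher, median 0.49). Of the 8 neutrophil markers, S100a8 and Mmp8 passed the adjusted limit, and S100a8 was at 0 in all 6 mice without DSS. The T cell sum was lowest, 2.21 FPKM, in colitis mouse 4 receiving BBR.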
